A study of Oryza sativa Japonica Group with 9 samples.

Results

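Ribosomal protein genes were examined in roots of rice (Oryza sativa, Japonica cultivar Nipponbare) supplied with control nutrients, deprived of nitrogen (N deficiency) or deprived of phosphorus (P deficiency). Members were all genes whose deposited description contains the words "Ribosomal protein", and this rule found 249 of 35902 genes, 247 of them in both deposited tables. Messenger RNA was measured by RNA sequencing, with 3 biological replicates for each of the 3 supplies, and both deficiencies were set against one set of control libraries. All groups share the cultivar and tissue, and the labels used here give neither plant age, nor the length or strength of the deprivation, nor how many plants made up a sample. The libraries held between 17931136 and 22752604 reads in genes.

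Ribosomes consist of ribosomal RNA and a set of ribosomal proteins, most of which are present once per particle. A plant cell has 3 kinds of ribosome: the cytosolic ones, and those of plastids and mitochondria, which descend from bacterial ribosomes and whose proteins are mostly encoded in the nucleus. Making ribosomes takes a large part of a cell's nitrogen and, through ribosomal RNA, of its phosphorus, and transcription of ribosomal protein genes is known to follow growth in yeast and in plants.

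Libraries were compared before the genes. P deficiency library 3 lay apart on the third principal component over all genes, at 102 against values down to -31.5 in the other P libraries. The members' count of calls and median for P deficiency against control are also given without it. NAR2.1, which encodes the root partner of nitrate transporters, was detected in each of the 9 libraries. Genes with chlorophyll a-b binding or photosystem domains, used as markers of shoot tissue, summed to between 1367 and 3640 RPM (reads scaled to a library total of 1000000) in control, between 422 and 619 under N deficiency and between 1015 and 1510 under P deficiency. Of those 40 genes, 1 had no read in the N libraries and 2 had none in the P libraries.

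The members were sorted by the domain family that the deposited tables name. The 98 genes of eukaryotic-type families mostly encode proteins that occur in cytosolic ribosomes and not in bacterial ones. Examples are the stalk proteins P1 and P2, which contact translation factors, and S6e, the target of S6 kinase. This class also holds 3 P0 genes, which carry the universal L10 domain as well. Another 11 of its genes belong to a domain family shared by L7Ae, L30e, S12e and Gadd45. The 103 genes of universal families have counterparts in every ribosome, so the family name alone does not tell a cytosolic from an organellar protein. The 41 genes of bacterial-type families are expected in plastid or mitochondrial ribosomes. The last 7 genes were not placed, among them 4 with a methyltransferase domain that acts on protein L11 and 1 with an S30EA domain. The members fell into 82 families, 14 of them with a single gene and 68 with several, and the largest family had 11 genes.

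Levels were compared between genes as RPKM, which is RPM divided by the gene length in kilobases. The median RPKM of the 247 members in both tables was 36.3, against 4.30 over all 34285 genes in both tables, and 74 members ranked among the 1000 highest genes. Eukaryotic-type genes had a median level of 92.7, universal genes of 43.5 and bacterial-type genes of 16.3. Eukaryotic-type genes made up 53.3% of the members' summed level, universal genes 43.2% and bacterial-type genes 2.95%. The highest level belonged to Os08g0116500, which encodes an acidic stalk protein of the P1/P2 family, whose mean RPKM was 711 ± 121 in control, 718 ± 163 without enough N and 762 ± 73.9 without enough P (SD, n = 3). Next came Os03g0345200, for the small-subunit protein S21e, at a mean of 453 over the 9 libraries, and Os03g0139100, for the large-subunit protein L14p/L23e, at 415. At the low end, 21 members had a level below 1, and the 6 members encoded on the mitochondrial or plastid chromosome had between 3 and 49 reads over all libraries. Whether the library preparation keeps organelle transcripts is not stated, so these reads do not give their level in the root.

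**Figure D1:**
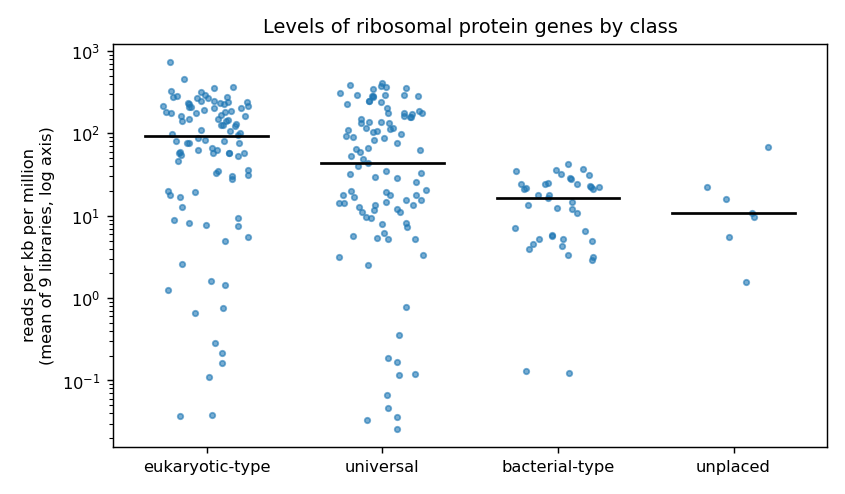
Level of each of 247 ribosomal protein genes as RPKM (RPM per kilobase of gene length), the mean of 9 libraries on a log axis, by class of domain family, with a bar at each class median. The medians are 92.7 for eukaryotic-type, 43.5 for universal and 16.3 for bacterial-type genes, and each of these classes also has genes below 1; points are spread sideways only to separate them.

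Within the 68 families of several genes, the gene with the highest level contributed a median of 58.7% of the family's summed level, from 20.2% to 99.9%. The share was close to the same in the 3 groups for most families. From control to N deficiency the leading gene's share moved by -5.93 to 7.43 percentage points, and it moved by under 5 points in 63 families. From control to P deficiency it moved by -4.87 to 9.998 points, and by under 5 points in 61 families. The families that moved further under P deficiency all rose. They were the bacterial-type families S21, L35, 50S L24, L17, S6 and S16 and the eukaryotic-type family S4e. In S21 the share was 56.2% in control, 63.2% under N and 66.2% under P deficiency. Under N deficiency S21, L35, L17 and S4e also rose by over 5 points, and the universal family S13/S18 fell. A family here is a group of genes with 1 domain name, and it can hold different proteins or cytosolic and organellar forms. The lowest share was that of the mixed L7Ae/L30e/S12e/Gadd45 family. The highest was in L2, where the other gene, BAC19886 of the mitochondrial chromosome, had an RPKM of 0.168. The shares are thus not in every family those of paralogs for the same protein. They are a description and were not tested.

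The levels of ribosomal protein genes moved together between replicates of the same group. The median log2 deviation of the members from their own 9-library mean was -0.011, 0.17 and -0.22 in control libraries 1, 2 and 3. It was -0.086, 0.16 and -0.30 in the N deficiency libraries, and 0.0032, 0.25 and 0.058 in the P deficiency libraries. In each group library 2 was the highest, and in control and N deficiency library 3 was the lowest. At each library number the median under N deficiency was below that of control, and the median under P deficiency was above it. The labels do not say whether the numbers pair the libraries, and this order was not tested. The pooled SD between replicates of these library medians was 0.189, whereas that of the medians over all tested genes was 0.0011, which the scaling of the libraries holds near 0.

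The movement involved most members rather than a few abundant ones. Library 2 was the highest of its group for 187 of 242 members in control (77.3%), for 206 of 241 under N deficiency (85.5%) and for 173 of 242 under P deficiency (71.5%). Over all genes the same shares were 30.2%, 35.01% and 31.3%. Library 3 was the lowest for 181 members in control (74.8%) and 196 under N deficiency (81.3%), while under P deficiency library 1 was the lowest for 130 (53.7%). Eukaryotic-type genes followed this order most closely, with library 2 highest for 87.6%, 88.7% and 84.5% of them in the 3 groups, and bacterial-type genes less so, at 58.5%, 80.0% and 46.3%; the difference between classes was not tested. These counts share their libraries, so the members are not independent of each other.

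**Figure D2:**
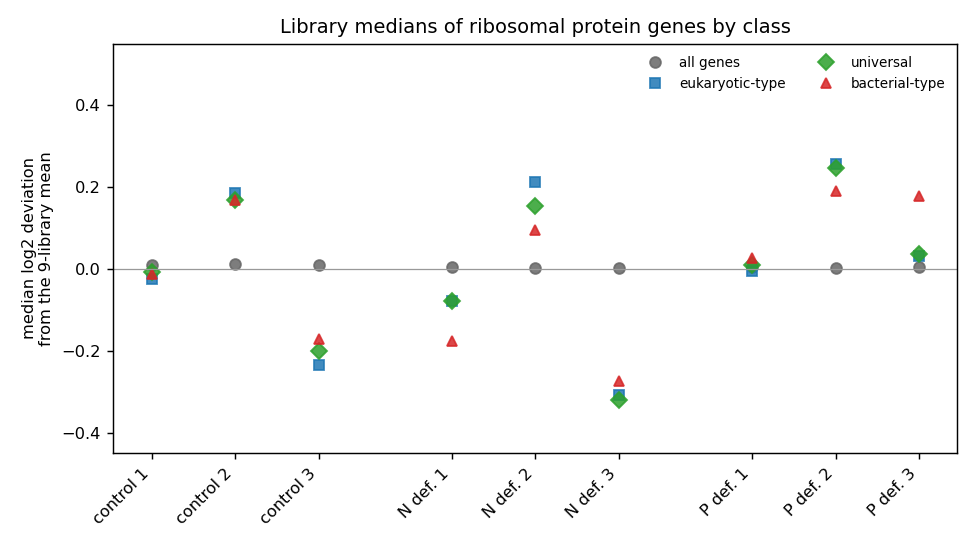
Median log2 deviation of each class of ribosomal protein genes, and of all tested genes, from the gene's mean over 9 libraries, for each library of the 3 groups. The class medians run from -0.24 to 0.19 in control, from -0.32 to 0.21 under N deficiency and from -0.0048 to 0.26 under P deficiency, while the medians of all genes stay between 0.0026 and 0.011.

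Measured as a share of all assigned reads, the members took 1.93%, 2.24% and 1.63% of control libraries 1, 2 and 3. They took 1.85%, 2.19% and 1.49% of the N deficiency libraries and 1.79%, 2.14% and 1.98% of the P deficiency libraries. Means over each group's libraries came to 1.93 ± 0.301% (control), 1.84 ± 0.351% (N deficiency) and 1.97 ± 0.178% (P deficiency; SD, n = 3). The ranges of the 3 groups overlapped, and the means differed by less than the SD within each group. By this measure P deficiency libraries 1 and 2 lay below the control libraries of the same number.

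Other genes of the translation machinery were compared in the same way. Several lists also had library 2 highest, but not every list had the members' order. Another 46 genes for ribosomal subunit proteins, whose descriptions use other wording, had library medians of 0.0045, 0.13 and -0.21 in control, -0.12, 0.20 and -0.29 under N deficiency, and -0.015, 0.28 and 0.060 under P deficiency. The medians of 53 genes for ribosome assembly and nucleolar proteins ranged from -0.20 in N deficiency library 3 to 0.11 in P deficiency library 2. Those of the 39 tested elongation factor genes ranged from -0.11, also in N deficiency library 3, to 0.071. In both lists library 2 was the highest of each group. It stood at 0.083, 0.083 and 0.11 for assembly genes and at 0.061, 0.071 and 0.055 for elongation factors, in control, N and P deficiency. The lowest control library was library 1 in both. The 49 tested initiation factor genes had medians of -0.0019, 0.033 and 0.033 in control, -0.035, 0.095 and -0.062 under N deficiency, and -0.029, 0.013 and -0.043 under P deficiency, so library 2 was again highest under each deficiency. The aminoacyl tRNA synthetase list held 66 tested genes whose descriptions name these enzymes, which load tRNA with amino acids. These genes did not have the members' order in control or under P deficiency. Their medians were 0.0023, 0.028 and 0.077 in control, where library 3 was the highest for 54.5% of them, then 0.022, 0.024 and -0.048 under N deficiency and -0.041, -0.034 and -0.026 under P deficiency. Markers of dividing cells (histones, cyclins and MCM proteins) had library 2 highest and library 3 lowest in control, at 0.039 and -0.34. The same held under N deficiency, at 0.15 and -0.036. Under P deficiency library 3 was their highest, at 0.24. Their summed level was 4717, 4672 and 3902 RPM in the control libraries, 4836, 4967 and 4308 under N deficiency and 3952, 4501 and 5452 under P deficiency, and its part in the members' levels was not tested.

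**Figure D3:**
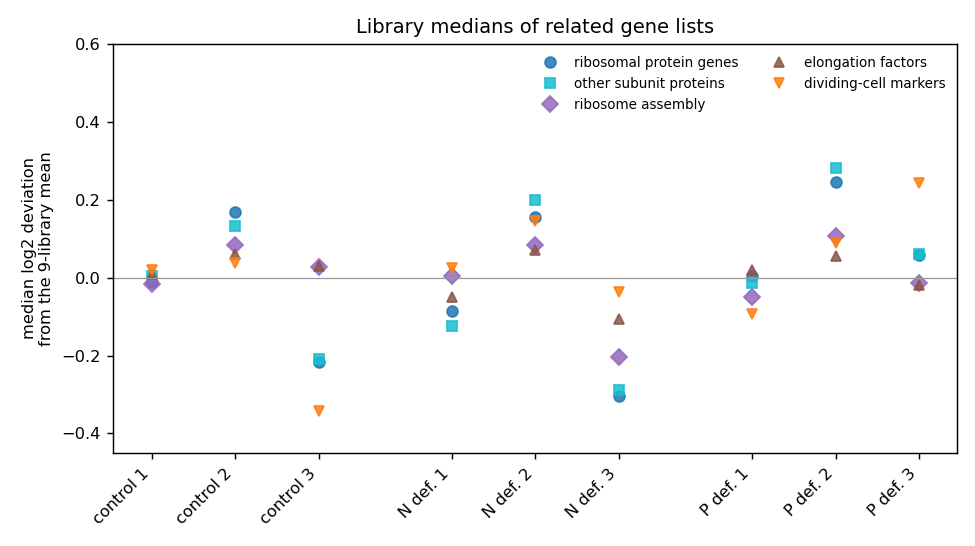
Median log2 deviation from the 9-library mean for ribosomal protein genes and 4 related gene lists in each library. Ribosomal protein genes and the other subunit proteins lie close together in each library, with lows of -0.30 and -0.29 in N deficiency library 3, while elongation factors stay between -0.11 and 0.071.

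N-deprived roots were set against control roots to find genes that respond to low nitrogen. Few ribosomal protein genes passed the test, and those that did were outside the eukaryotic-type families. Of 242 members tested, 6 passed, all lower under N deficiency (limma, Benjamini-Hochberg adjusted p under 0.05), a share of 2.48% against 12.8% of all 32680 tested genes in either direction and 5.94% lower. None was higher, against 6.9% of all genes; edgeR called 5 members and DESeq2 7, 12.7% and 14.8% over all genes, and 0 of these were higher, while 1 member was higher at an unadjusted p under 0.05. No eukaryotic-type gene of 97 passed with limma, edgeR or DESeq2, and at an unadjusted p under 0.05 there were 1 higher and 3 lower. Among the others, 2 of 97 universal genes, 3 of 41 bacterial-type genes and 1 of 7 unplaced genes fell.

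The fold changes of the members were small. Their median log2 fold change was -0.055, beside -0.0082 over all tested genes, and 166 of 242 were below 0. A change within 0.5 on the log2 scale in either direction was found for 91.3% of the members and 68.1% of all genes, with a median SE of 0.171 for the members. By class the median was -0.034 for eukaryotic-type, -0.060 for universal and -0.12 for bacterial-type genes. The sign of the members' median depended on single libraries: it was 0.061 without N deficiency library 3 and 0.036 without control library 2, and it was -0.19 without N deficiency library 2 and -0.15 without control library 3. In size the median was below the pooled SD between replicates of the library medians, 0.189. That SD and the fits with a library left out take the libraries as unpaired, although the N deficiency median was below control at each library number. All 3 N libraries lay below all 3 control libraries for 21 members and above them for 2, shares of 8.68% and 0.826% against 15% and 15.8% of all genes.

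The clearest fall was that of Os01g0633000 (chromosome 1, 25350681 to 25351536), which encodes a protein of the bacterial-type family L31, a component of the large subunit. It had 847, 927 and 1099 normalised reads in the control libraries and 438, 524 and 527 in the N deficiency libraries. The groups were well apart, and the log2 fold change was -0.94 ± 0.129 (SE; limma, adjusted p = 0.0023). Os03g0856500 (chromosome 3, 36132354 to 36134532) carries the S30EA domain, known from bacterial factors that bind idle ribosomes and from a chloroplast ribosome-bound protein in spinach. It went from 450, 451 and 549 to 186, 136 and 252 normalised reads. Its log2 fold change was -1.37 ± 0.212 (limma, adjusted p = 0.0041), and both this call and that of Os01g0633000 held in all 15 alternatives tried.

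The other 4 falls were less secure. Os03g0265400 (chromosome 3, 8753551 to 8756010), for a large-subunit protein of the L4/L1 family, went from 82.9, 128 and 168 to 48.5, 59.99 and 61.6 normalised reads. Its log2 fold change was -1.09 ± 0.266 (limma, adjusted p = 0.030). Os06g0683200 (chromosome 6, 28472626 to 28474779), for a protein of the organellar L24 family, went from 89.8, 142 and 168 to 59.9, 67.1 and 78.3. Its log2 fold change was -0.91 ± 0.249 (limma, adjusted p = 0.046). Os03g0704000 (chromosome 3, 28301306 to 28303182), for a small-subunit protein of the S13/S18 family, went from 204, 246 and 278 to 134, 162 and 171. Its log2 fold change was -0.63 ± 0.162 (limma, adjusted p = 0.036). The calls of these 3 genes were each lost without control library 2 or 3 or without any 1 of the N libraries, with adjusted p up to 0.16. That of Os06g0683200 was also lost with a pseudocount of 0.1. Os05g0568300 (chromosome 5, 28299369 to 28300093), for a stalk protein of the bacterial-type L7/L12 family, had 14 reads over the control libraries and none over the N libraries. Its control libraries had 1.12, 4.72 and 7.24 normalised reads on a scale common to all 9 libraries. Against a floor of 3 reads over the N group its summed level was at least 4.56-fold lower (limma, adjusted p = 0.043). This bound leaves out the spread between libraries. The call was lost in 10 of 14 alternatives, edgeR and DESeq2 among them.

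The genes that fell were also compared by control library. All 6 were highest in control library 3, where most members were lowest, whereas 34 of 242 members were highest there. Photosynthesis markers were also highest in control library 3, at 3640 RPM, and 30 of their 40 genes fell under N deficiency. Their part in the falls was not tested. In whole roots, fewer cells of a type and less RNA per cell cannot be told apart. In the authors' deposited table, 7 of 247 members passed and all were lower, 2.83% against 13.7% of all genes. These 7 were the 6 above without Os05g0568300, and Os03g0284400 and Os03g0452300, for proteins of the L10 and S5 families, which were named after their values were seen.

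**Figure D4:**
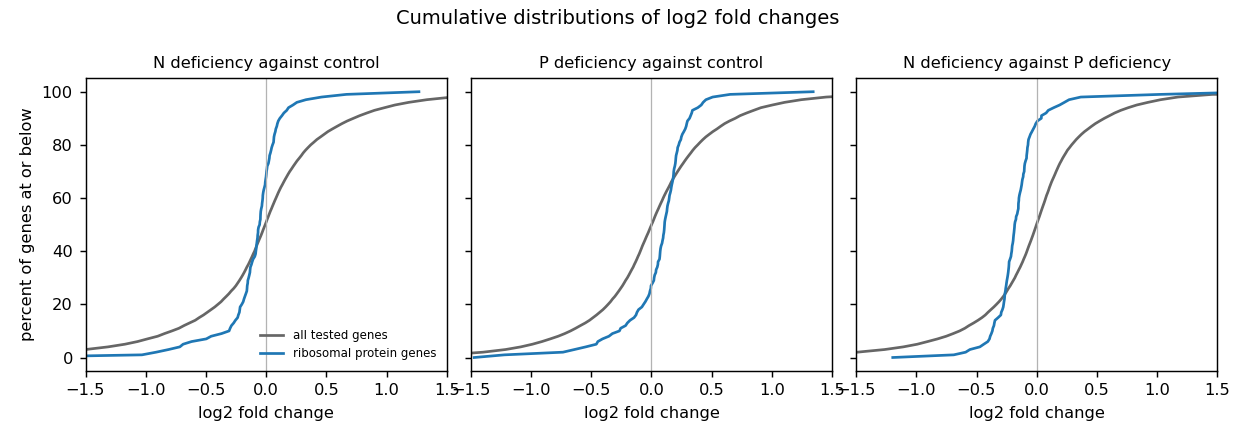
Cumulative distributions of log2 fold changes in 3 comparisons, for ribosomal protein genes and for all tested genes, with the percent of genes at or below each value on the vertical axis; the horizontal axis stops at 1.5 in both directions. The curves of ribosomal protein genes are steeper, with medians of -0.055, 0.11 and -0.18 against -0.0082, 0.0010 and -0.0020 for all genes.

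P-deprived roots were likewise set against control roots, for low phosphorus. Of 242 members tested, 1 was higher and 2 were lower under P deficiency (limma, adjusted p under 0.05), a share of 1.24% against 6.28% of all 32576 tested genes (3.58% higher and 2.7% lower). With edgeR 2 members passed and with DESeq2 4, against 6.07% and 10% of all genes. No eukaryotic-type gene of 97 passed with limma, edgeR or DESeq2, with 1 higher and 2 lower at an unadjusted p under 0.05. Without P deficiency library 3, which lay apart, the count was 5, with 1 higher and 4 lower, and the share of all genes also rose, to 10.4%. Without P deficiency library 1, P deficiency library 2 or control library 1 the count was 0 with limma, against 2.56%, 2.85% and 2.14% of all genes. At an unadjusted p under 0.05, 7, 2 and 7 members were higher and 5, 7 and 13 lower in these fits. The count was 1 without control library 2 or 3.

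The members' median log2 fold change was 0.11, beside 0.0010 over all genes, and 176 of 242 were above 0. It was 0.11 for eukaryotic-type, 0.10 for universal and 0.14 for bacterial-type genes. Changes within 0.5 on the log2 scale made up 92.6% of the members and 70.2% of all genes. The median fell to 0.0013 without control library 3 and to 0.038 without P deficiency library 2, and rose to 0.20 without control library 2. It was 0.12 without P deficiency library 3. All 3 P libraries lay above all 3 control libraries for 17 members and below them for 10, shares of 7.02% and 4.13% against 13.3% and 14.5% of all genes.

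The gene that rose was Os07g0207301 (chromosome 7, 5787338 to 5787867), for a small-subunit protein of the S5 family. It had 148, 235 and 156 normalised reads in the control libraries and 437, 540 and 380 under P deficiency. The groups did not overlap, and the log2 fold change was 1.34 ± 0.211 (limma, adjusted p = 0.013); the call was lost without P deficiency library 1 or 2 or control library 1, with adjusted p up to 0.062. This gene overlaps another S5 gene, Os07g0207400, on the opposite strand, and without a stated strand setting the reads of the pair cannot be told apart. On a scale common to all 9 libraries, Os07g0207400 had 246, 305 and 221 normalised reads in control and 205, 263 and 214 under P deficiency. Under N deficiency Os07g0207301 had 182, 458 and 273 on that scale, overlapping control, and its log2 fold change in the comparison with control was 0.66 ± 0.321 (limma, adjusted p = 0.25, from 0.036 to 0.52 over the alternatives).

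Both genes that fell under P deficiency had also fallen under N deficiency, in comparisons that share their control libraries. Os03g0856500, with the S30EA domain, went from 432, 431 and 520 to 206, 183 and 318 normalised reads, and the fitted change was -1.001 ± 0.210 on the log2 scale (limma, adjusted p = 0.035). Os01g0633000, of the L31 family, went from 813, 886 and 1041 to 525, 421 and 670, with a log2 fold change of -0.78 ± 0.180 (limma, adjusted p = 0.048). Under P deficiency each was highest in library 3, and the groups did not overlap. The first call was lost without P deficiency library 1 or 2 or any control library, with adjusted p up to 0.12, and the second was lost in 8 of 15 alternatives, edgeR among them, with adjusted p up to 0.15. Both genes were highest in control library 3, as in the comparison with N deficiency. The photosynthesis markers were also highest there; their median log2 fold change under P deficiency was -0.56, with 34 of 40 below 0, 7 lower at an unadjusted p under 0.05 and 1 that passed (limma, adjusted p under 0.05). Their part in these falls was not tested. In the authors' deposited table, 1 of 249 members was higher and 3 were lower, 1.61% against 9.36% of all genes, and the third was Os05g0388500, named after its values were seen.

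**Figure D5:**
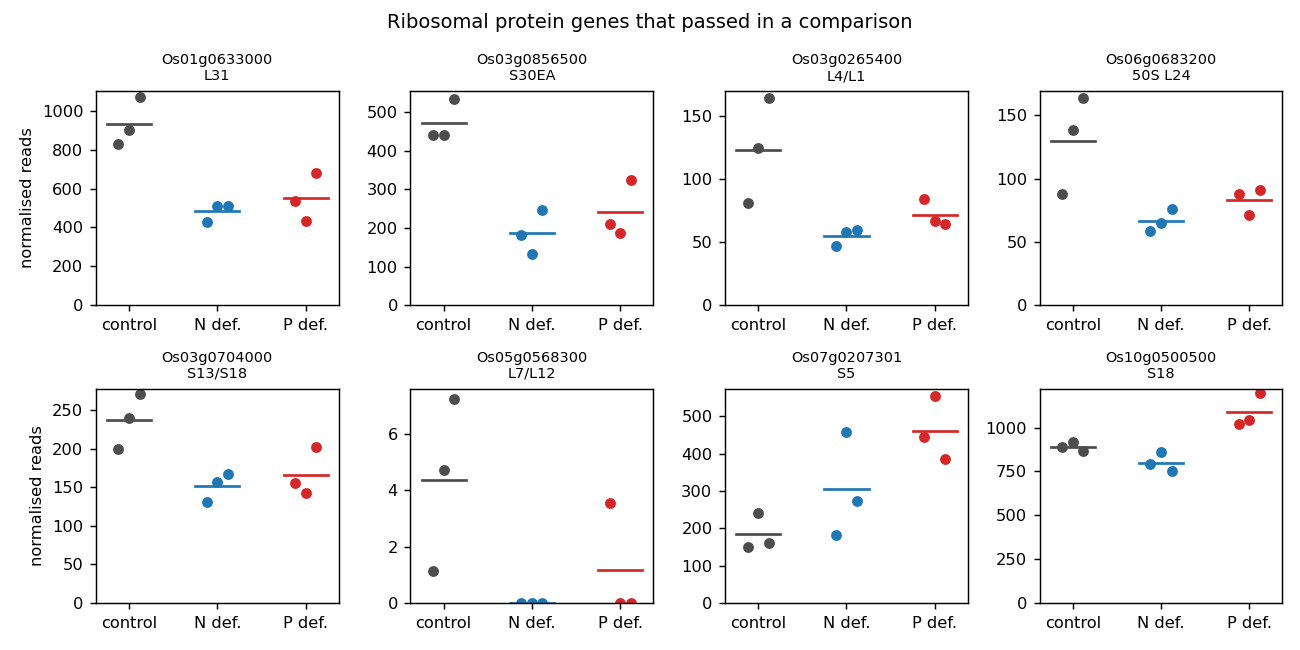
Normalised reads on a scale common to 9 libraries for the 8 ribosomal protein genes that passed in at least 1 comparison, with a point for each library and a bar at each group mean, by group. For Os01g0633000 and Os03g0856500 all control points lie above the N and P deficiency points, and for Os07g0207301 the P deficiency points, from 386 to 554, lie above all control points.

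N and P deficiency were also compared directly. Of 241 members tested, 1 passed, lower under N than under P deficiency (limma, adjusted p under 0.05), a share of 0.415% against 3.88% of all 32119 tested genes (1.43% higher and 2.45% lower). With edgeR 1 member passed and with DESeq2 2, against 3.98% and 7.09% of all genes. The member that passed with limma was Os10g0500500, of the bacterial-type small-subunit family S18. It had 789, 859 and 753 normalised reads under N deficiency, 1018, 1043 and 1199 under P deficiency and 891, 915 and 865 in control, so that all N libraries lay below and all P libraries above the control range. Its log2 fold change was -0.44 ± 0.0955 (limma, adjusted p = 0.033), and the call was lost in 8 of 18 alternatives, among them the fit without P deficiency library 3, with adjusted p up to 0.13. Against control the gene passed in neither deficiency, with log2 fold changes of -0.15 ± 0.0920 for N and 0.28 ± 0.0993 for P (limma, adjusted p = 0.36 and 0.15).

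The members' median in this comparison was -0.18, beside -0.0020 over all genes, and 214 of 241 were below 0. It was -0.15 for eukaryotic-type, -0.18 for universal and -0.24 for bacterial-type genes. The median was -0.065 without N deficiency library 3, -0.12 without P deficiency library 2 and -0.29 without N deficiency library 2. The group means of the library medians were -0.078 ± 0.231 under N and 0.10 ± 0.127 under P deficiency (SD, n = 3). They differed by less than the larger of the SDs, and the libraries of the groups overlapped. These SDs take the libraries as unpaired, and at each library number the N median was below the P median. All 3 N libraries lay below all 3 P libraries for 14 members and above them for 3, shares of 5.81% and 1.24% against 10.6% and 11% of all genes.

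The stalk and the target of S6 kinase were described whatever their test. The 9 genes for P0, P1 and P2 had median log2 fold changes of 0.081 under N and 0.21 under P deficiency, and none passed (limma; at an unadjusted p under 0.05, 0 under N and 1 higher under P deficiency). With 12.8% and 6.28% of all genes called, a count of 0 among 9 genes does not set the stalk apart. Os08g0116500, the P1/P2 gene with the highest level, had a log2 fold change of 0.03 ± 0.179 under N and 0.18 ± 0.156 under P deficiency (limma, adjusted p = 0.95 and 0.55). The P0 gene Os12g0133050 went from 452 ± 31.5 to 497 ± 71.5 normalised reads under N deficiency and from 432 ± 32.7 to 524 ± 45.8 under P deficiency (SD, n = 3). All its P libraries lay above control, but it did not pass, at 0.28 ± 0.111 (limma, adjusted p = 0.20). The S6e genes Os03g0390000 and Os07g0622100 had log2 fold changes of -0.04 ± 0.152 and -0.03 ± 0.182 under N deficiency and of 0.03 ± 0.123 and 0.16 ± 0.158 under P deficiency (limma, adjusted p from 0.61 to 0.95). TOR, the growth kinase upstream of S6 kinase, had a log2 fold change of 0.02 ± 0.106 under N and -0.29 ± 0.0846 under P deficiency (limma, adjusted p = 0.95 and 0.096).

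Members of the named set with the largest changes that did not pass were mostly of low level. Os03g0452300, of the S5 family, had 293 ± 110 normalised reads in control and 168 ± 33.1 under N deficiency, with groups narrowly apart. Its log2 fold change was -0.76 ± 0.257 (limma, adjusted p = 0.099). EPlOSAG00000009451 overlaps this gene on the opposite strand, and without a stated strand setting their reads cannot be told apart. On the scale common to all libraries Os03g0452300 had 202, 249 and 406 in control and 155, 199 and 136 under N deficiency. DESeq2 called it (adjusted p = 0.032), and without control library 3 it passed as lower under N than under P deficiency (limma, adjusted p = 0.049); over all alternatives its adjusted p ran from 0.032 to 0.27 and from 0.049 to 0.44 in these comparisons. Os03g0807800, the S5 gene with the most reads, had 4479.8 ± 675 in control and 6143 ± 964 under P deficiency, with groups apart and a log2 fold change of 0.46 ± 0.162 (limma, adjusted p = 0.16). Os10g0491801, which encodes ubiquitin fused to S27a, had 23.5 ± 5.85 under N and 10.7 ± 1.07 under P deficiency, with groups apart and a log2 fold change of 1.04 ± 0.329 (limma, adjusted p = 0.13).

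Calls were also counted in the wider translation machinery. Under N deficiency 1 of 53 assembly and nucleolar genes, 4 of 39 elongation factor genes and 1 of 49 initiation factor genes passed. So did 3 of 66 genes of the aminoacyl tRNA synthetase list and 1 of 45 other subunit protein genes. All of them were lower (limma, adjusted p under 0.05). In the synthetase list, Os10g0463100 has a synthetase catalytic domain. The descriptions of Os07g0469100 and Os10g0536500 give only CAAD domains, so these 2 cannot be counted as synthetases. Against 5.94% of all genes lower, the shares were 10.3% for elongation factors, 4.55% for the synthetase list and 2.22% for other subunit proteins. They were 2.04% for initiation factors and 1.89% for assembly and nucleolar genes. The genes that passed can also be read by type. Genes with domains named after bacterial factors were among them. Os02g0285800 went from 487, 628 and 1091 to 286, 321 and 325 normalised reads. Its description gives only an elongation factor G C-terminus and an elongation factor Tu domain 2, so the factor it encodes cannot be told from it. Os02g0595700, with elongation factor Tu domains, which delivers tRNA, went from 963, 1240 and 1747 to 704, 746 and 764. Both were highest in control library 3. The assembly gene was Os01g0911000, of the Sas10/Utp3 family of nucleolar proteins that process ribosomal RNA. It had a log2 fold change of -0.44 ± 0.109 under N and -0.60 ± 0.101 under P deficiency (limma, adjusted p = 0.031 and 0.016).

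Under P deficiency the same lists gave 1 lower assembly gene, 1 higher elongation factor gene and 1 higher initiation factor gene (limma, adjusted p under 0.05). They also gave 1 lower gene of the aminoacyl tRNA synthetase list and 1 lower other subunit protein gene. Over all genes 3.58% were higher and 2.7% lower. The gene of the synthetase list was Os07g0469100, whose description gives only CAAD domains, so it cannot be counted as a synthetase. The initiation factor gene was Os01g0280500, of the eIF-6 family, which keeps the large subunit from joining the small one. It had 9.94, 7.42 and 7.05 normalised reads in control and 24.4, 19.9 and 21.5 under P deficiency. The other subunit gene was Os03g0828100, of the L18 family, which went from 260, 347 and 322 to 218, 169 and 186.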

How the data were processed

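Root RNA was made into TruSeq RNA libraries, per the labels' protocols, which do not state poly(A) selection. The submitters' processing notes name HISAT2 2.0.5 and, for this rice series, hg38. For the rice build, the counter, its strand setting and the annotation, the sources used here give nothing.

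Library values are a normalised signal that the authors deposited: reads of a gene over a library size factor, set for each of the 2 tables on its own. The authors' deposited log2 fold changes and p-values, named by the file headers, are quoted only where stated. Whole reads were recovered for 100% of values up to 100 reads (tolerance 0.001). Control reads differed between the tables in 0 of 34285 shared genes.

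The main test was limma 3.58.1 in R 4.3.3 (trend on, values as log2(value + 1)) over all genes with a mean of at least 1 in 1 of the groups, each deficiency on its own table, with Benjamini-Hochberg adjustment at 0.05. This scale understates the change of low genes. N was contrasted with P deficiency over 9 libraries, on reads rescaled by median-of-ratios size factors. Alternatives were edgeR 4.0.16, which called 4156, 1976 and 1278 genes in the 3 comparisons, DESeq2 1.42.0, other pseudocounts, filters, scalings and samples, and each library left out. The steps were tested on simulated data.

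Classes follow protein domain names. Members, lists and tests were chosen with earlier results of these data known, and the list of other subunit proteins was added after the files were read. Named genes were those that passed, the 5 largest rises and falls per comparison with a mean of at least 10, the 10 highest levels, the stalk proteins and S6e; the text gives a part of these. No sequences were used.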

Additional observations from a re-analysis of the deposited data

How the results depend on the processing

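For N against P deficiency the count of 1 passing member was 2 with DESeq2 and 0 in a fit on the 6 libraries alone. With 1 library left out, the number of passing members ranged from 2 to 7 for N deficiency against control, from 0 to 5 for P deficiency against control and from 0 to 2 for N against P deficiency. The members' median log2 fold change then ranged from -0.19 to 0.061, from 0.0013 to 0.20 and from -0.29 to -0.065. Other tools, scalings, filters and pseudocounts kept the sign of each median, from -0.071 to -0.050, from 0.088 to 0.11 and from -0.18 to -0.16. Over 2002 values of named genes in the alternatives, 50 lost a call, 4 gained one and the others kept their side of the threshold. The number in a library's name did not meet the criterion for pairing, a correlation over 0.1 between deviations of every same-numbered pair. For number 1 the correlations ran from -0.056 to 0.0088, and control library 1 correlated best with N deficiency library 2 (0.071). For numbers 2 and 3 they ran from 0.097 to 0.22, and each library numbered 2 with each numbered 3 from -0.24 to -0.075. The labels do not say whether a number marks a shared batch. With the replicate number as a block the counts were 6, 3 and 1 passing members, and the 6 under N deficiency were 1 higher, Os07g0207301 (adjusted p = 0.036), and 5 lower, without Os05g0568300 (0.057). At an unadjusted p under 0.05, 29 members were then lower under N deficiency in place of 17, 21 higher under P deficiency in place of 7, and 39 lower under N than P deficiency in place of 8. Over all genes, in either direction, these counts went from 8324 to 8972, from 6998 to 7418 and from 5409 to 6095. With 3 libraries per group and a median SE of 0.171 on the log2 scale, the smallest change that passed under N deficiency was -0.63. Depth limited the members with few reads: 5 of 247 were not tested under N deficiency, with 2 to 6 reads each over 6 libraries.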
